A study of Mus musculus with 2 samples.

Results

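The TRIM genes of the mouse were taken as the genes whose symbol is Trim followed by a number and at most 1 letter and that have at least 1 transcript annotated as protein_coding. The rule gave 68 genes with 269 annotated transcripts, out of 55536 gene rows and 22028 protein-coding genes. It used names and annotation and no measured value. Family genes with other symbols (Pml, Mid1, Mid2 and Mefv) fall outside it and are described only beside the members.

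TRIM proteins share a tripartite front end of a RING finger, B-box zinc fingers and a coiled coil. The RING recruits a ubiquitin-conjugating (E2) enzyme, so that many members act as ubiquitin ligases, and the C-terminal domain, often a SPRY domain, selects the target. In macrophages the family is best known for restricting viruses and for adjusting signalling below Toll-like receptors, RIG-I and cGAS, and many members are interferon-stimulated genes. Some members, among them Trim14, Trim16, Trim29 and Trim44, lack the RING, so the name ubiquitin ligase family holds for them by kinship only.

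The study deposited 2 RNA-seq libraries of 1 group, replicates 1 and 2. Bone marrow-derived macrophages of C57BL/6J mice were exposed to Lipid A, the Toll-like receptor 4 ligand within bacterial lipopolysaccharide, at 100 ng/ml for 12 h. After 12 h without the ligand they were exposed again at 100 ng/ml for 30 min. The RNA was that of the nucleoplasm, depleted of ribosomal RNA, and library preparation started from 1 µg in replicate 1 and from 500 ng in replicate 2. Both replicates carry the same donor identifier but separate biosample records, and the labels do not say whether they were separate mice or cultures. Any spread between them may therefore be technical. No unstimulated cells, no cells stimulated once and no cytoplasmic fraction are analysed here, so levels are described in 1 state and no gene is called induced or repressed.

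The 2 libraries held 23845991 and 20675294 counts over all genes (replicate 1 first, here and wherever 2 values are given). A count of 0 allows up to 3 counts, equal to 0.126 and 0.145 CPM (counts scaled to library size). All 10 macrophage markers examined had a mean TPM (the authors' length-normalised unit of transcript abundance) of 10 or more, with summed TPM of 2148 and 3588. Cd3e, Ncr1, Ly6g and Elane were listed at 0 in both libraries. Summed TPM was at most 0.08 for 4 T and NK cell markers and at most 0.22 for 3 B cell markers. It was at most 2.26 for 4 neutrophil markers, 2.24 for 4 dendritic cell markers and 0.17 for 3 fibroblast markers. Endothelial markers summed to 10.6 and 7.81, with Kdr at 9.61 and 6.17. Alas2, of the red cell lineage, had 1.91 and 3.02 TPM. Summed over protein-coding genes, TPM was 203969 in replicate 1 and 299668 in replicate 2. TPM is used below for levels, since it is per length, and scaled counts for differences between the libraries. A TPM that is higher in replicate 2 can therefore go with a scaled count that is lower.

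The family ranged from abundant to undetected. In both libraries 33 of 68 members (48.5%) reached 1 TPM, against 41.9% of all protein-coding genes. A mean of 10 TPM or more was reached by 18 members (26.5%), against 17.5% of protein-coding genes. The median over all 68 members was 0.89 TPM in replicate 1 and 1.42 TPM in replicate 2, and over all protein-coding genes it was 0.28 and 0.33. Trim17, Trim32, Trim43c and Trim62 reached 1 TPM in replicate 2 alone. A further 15 members were below 1 TPM in both libraries but above 0 in at least 1, and 16 were listed at 0 in both. Of all 22028 protein-coding genes, 4839 and 7346 were in these 2 states. In bulk RNA, fewer cells that express a gene and less of its RNA per cell cannot be told apart.

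**Figure D1:**
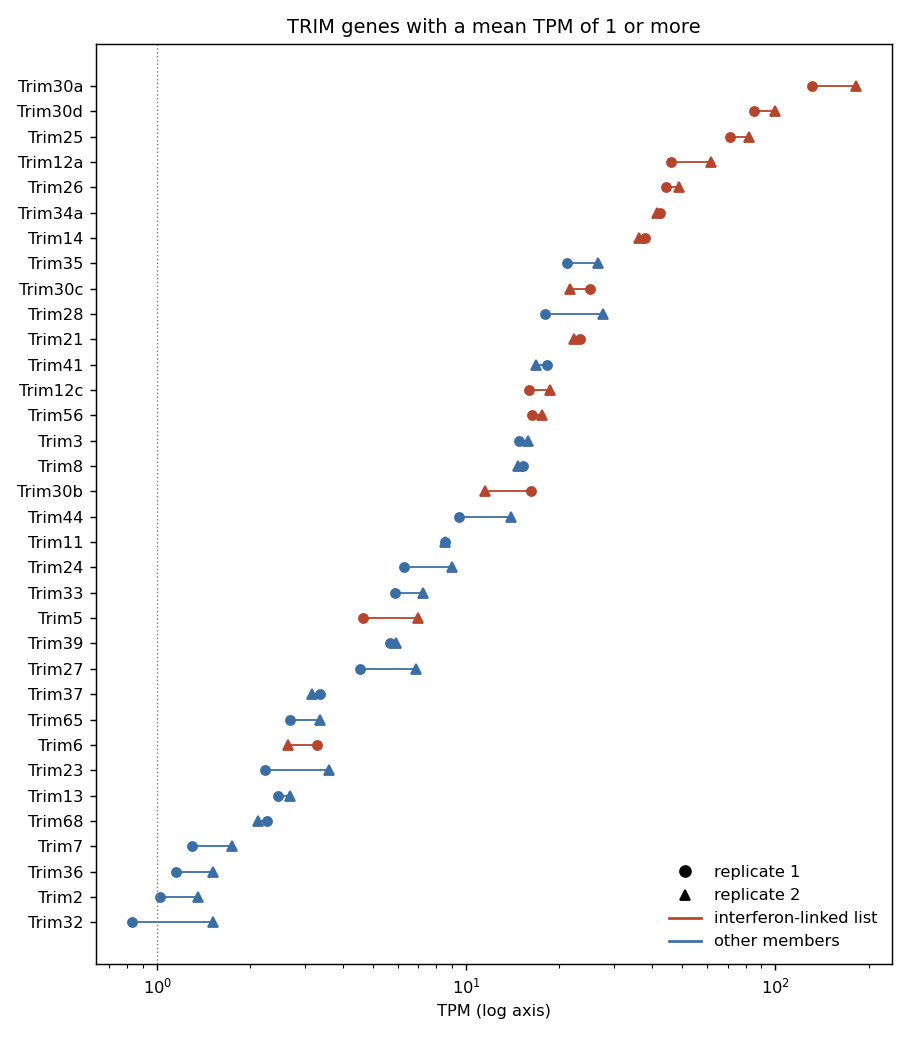
TPM (log axis) of each member with a mean of 1 TPM or more, ordered by mean, with circles for replicate 1, triangles for replicate 2 and red for the interferon-linked list. Trim30a stood highest at 131 and 183 TPM, and the 7 highest members were all on the list. The list was chosen with earlier results of these data known.

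The 15 members on a list linked to interferon (Trim5, Trim6, Trim12a, Trim12c, Trim14, Trim21, Trim25, Trim26, Trim30a to Trim30d, Trim34a, Trim34b and Trim56) made up most of the family's RNA. They held 78.5% ± 0.474 (SD, n = 2) of the members' summed TPM. The list was chosen with earlier results of these data known, so its values here are description only. Of these 15, 14 reached 1 TPM in both libraries and 12 a mean of 10 TPM, with medians of 25.1 and 22.4 TPM. The other 53 members had medians of 0.53 and 0.77 TPM, and 19 of them reached 1 TPM in both libraries.

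The largest single contribution came from a cluster of 10 SPRY-type genes on chromosome 7, which are the mouse relatives of human TRIM5, TRIM6, TRIM22 and TRIM34. On GRCm38 (mm10) the cluster runs from the start of Trim6 at chr7:104218793 to the end of Trim30d at 104507849. Its members held 52.6% ± 1.11 (SD, n = 2) of the family's summed TPM, 9 of 10 reached 1 TPM in both libraries, and the medians were 20.6 and 20.1 TPM. By share of expected counts, which are not divided by length, the figure was 48.4%.

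Short promoter windows, centred on the matched bases, are printed for 6 of the 10 cluster genes and for Trim21 and Trim26 from the same list. These genes carried a common motif, and some windows are shared between members. Trim2, which is not on that list, carried it too, and its window is not printed. RefSeq promoters of GRCm38.p6, 250 bases before to 50 bases after each start, were found for 53 of 68 members. They were searched for a word like the interferon-stimulated response element (ISRE), made of GAAA, any 2 bases and GAAA, on both strands. Read on the other strand, the word is TTTC, any 2 bases and TTTC. Each line gives 30 bases 5′ to 3′ on the strand of the gene, with the matched bases in capitals.
Trim30a: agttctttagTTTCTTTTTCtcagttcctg
Trim30d: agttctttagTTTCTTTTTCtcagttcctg
Trim12a: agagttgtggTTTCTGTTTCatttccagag
Trim5: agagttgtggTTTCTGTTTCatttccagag
Trim12c: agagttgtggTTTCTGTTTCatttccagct
Trim34a: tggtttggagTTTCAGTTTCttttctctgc
Trim21: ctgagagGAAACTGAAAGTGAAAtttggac
Trim26: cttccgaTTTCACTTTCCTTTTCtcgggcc

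The windows lie at chr7:104465210-104465239 (minus strand) for Trim30a and chr7:104507871-104507900 (minus) for Trim30d. Those of Trim12a, Trim5 and Trim12c lie at chr7:104315466-104315495, chr7:104288136-104288165 and chr7:104353359-104353388, all on the minus strand. That of Trim34a lies at chr7:104244457-104244486 (plus), that of Trim21 at chr7:102565447-102565476 (minus) and that of Trim26 at chr17:36836979-36837008 (plus). The windows of Trim30a and Trim30d were identical over 30 bases, as were those of Trim12a and Trim5, and Trim12c was identical to Trim5 at 28 of 30. Trim21 and Trim26 each held 2 overlapping matches. The printed matches began between positions -160 (Trim26) and 14 (Trim21) relative to the start. A second promoter of Trim30a held a match in another window, which is not printed.

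Trim30a, which in macrophages limits Toll-like receptor signalling by promoting loss of TAB2 and TAB3, was the most abundant member. It had 131 TPM in replicate 1 and 183 TPM in replicate 2 (157 ± 36.1, SD, n = 2), rank 174 of 22028 protein-coding genes by mean TPM, and lies at chr7:104409025-104465193 on the minus strand. Its neighbour Trim30d followed with 85.3 and 99.6 TPM (92.5 ± 10.1, SD, n = 2). Both replicates of Trim30a lay above both of Trim30d.

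The remaining paralogues of that group were lower. Trim30c had 25.1 and 21.6 TPM, and Trim30b had 16.2 and 11.5 TPM. Both were higher in replicate 1 in TPM and in scaled counts, and Trim30a was higher in replicate 2 on both scales. Of all 50-base stretches in the transcripts of Trim30a, 5.98% also occur in another gene, and the figures were 7.49% for Trim30d and 1.48% for Trim30b. Trim30d also overlaps the pseudogene Gm16464 on the same strand, which had 673 and 468 counts.

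The relatives of human TRIM5, a factor that recognises retroviral capsids, differed widely in level. Trim12a had 46.1 and 62.0 TPM (54.0 ± 11.3, SD, n = 2). Trim12c had 15.9 and 18.7 TPM. Trim5 had 4.63 and 7.0 TPM. The ranges of these 3 genes did not overlap. TPM was higher in replicate 2 for each, but in scaled counts Trim5 alone was higher there. Trim5 shares 36.6% of its 50-base stretches with other genes, chiefly Trim12c, so the division of reads between them is uncertain.

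Trim34a, which has a near-copy named Trim34b, had 42.4 and 41.3 TPM (41.9 ± 0.750, SD, n = 2). Trim34b had 0.28 and 0.30 TPM, from 15.5 and 13.3 expected counts. Since 59.7% of the 50-base stretches of Trim34a and 56.8% of those of Trim34b also occur in another gene, the division of reads between the 2 copies is uncertain. Trim6, whose human counterpart builds unanchored ubiquitin chains during the interferon response, had 3.28 and 2.64 TPM. It was the lowest of the cluster members above 1 TPM, and its libraries overlapped with none of the others in the cluster.

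**Figure D2:**
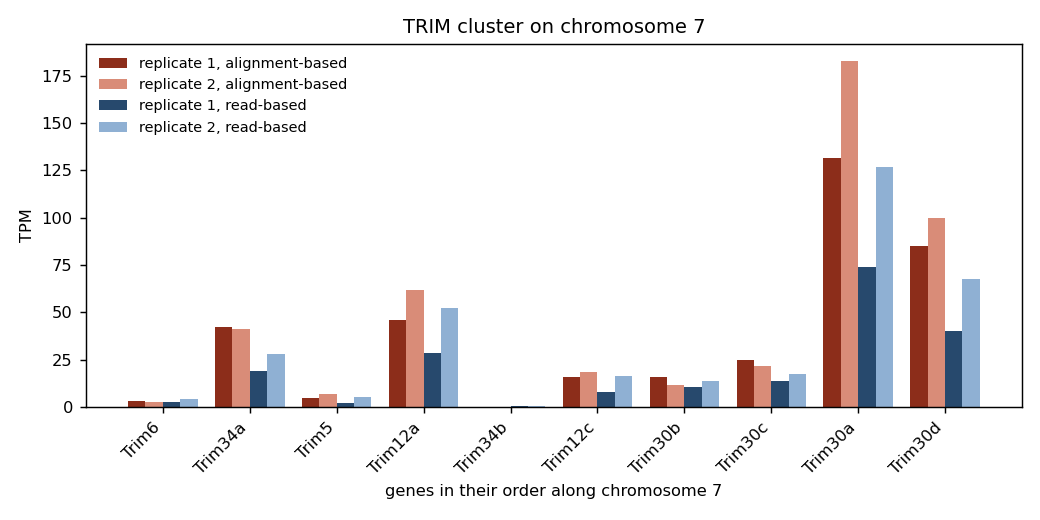
TPM of the 10 genes of the chromosome 7 cluster in their order along the chromosome, with red bars for the alignment-based gene table, blue bars for the read-based table and 1 bar per library. Trim30a was highest in both tables, at 131 and 183 TPM in the first and 73.9 and 127 TPM in the second.

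Outside the cluster the most abundant member was Trim25, the ligase that ubiquitinates the RNA sensor RIG-I and assists the antiviral protein ZAP. It had 71.3 and 82.2 TPM (76.7 ± 7.71, SD, n = 2) and lies at chr11:88999376-89020293 on the plus strand. Trim26, a ligase reported to act on the transcription factor IRF3, followed with 44.2 and 48.9 TPM (46.6 ± 3.33). Trim14, a RING-less adaptor of the MAVS and cGAS pathways, had 37.8 and 36.2 TPM (37.0 ± 1.14). Both libraries of Trim25 lay above both of Trim26, and those of Trim26 above those of Trim14.

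Trim21, a cytosolic receptor that binds the constant region of antibody on incoming virus, had 23.3 and 22.4 TPM (22.8 ± 0.643, SD, n = 2). Trim56, a RING protein without a SPRY domain that augments STING and RNA-sensing pathways, had 16.3 and 17.5 TPM (16.9 ± 0.870). Trim21 lay above Trim56 in both libraries. Trim14 overlaps Nans on the opposite strand and shares 33.9% of its 50-base stretches with other genes, mostly Nans, so part of its reads may be those of Nans.

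Of the remaining SPRY members, Trim35 was the highest, with 21.1 and 26.7 TPM. Trim41 had 18.3 and 16.8 TPM. Trim11 had 8.54 and 8.53 TPM and Trim39 had 5.66 and 5.93 TPM, so both libraries of each lay below those of Trim41. Trim41 overlaps Rack1 on the opposite strand, a gene with 1436 and 1055 counts in the 2 libraries. Trim8, a RING member without a SPRY domain that promotes NF-kB activation by TNF and interleukin-1, had 15.3 and 14.7 TPM. Trim44, a RING-less member with a zinc finger found in ubiquitin-specific proteases, had 9.50 and 13.9 TPM.

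In the order by mean TPM Trim30a, Trim30d, Trim25 and Trim12a each stood apart from the next of these 4, in that both libraries of one lay above both of the other. Trim12a and Trim26 did not. Trim35, Trim30c, Trim28 and Trim21 did not stand apart from one another, nor did Trim41, Trim12c and Trim56. Trim3 overlapped Trim8, Trim8 overlapped Trim30b and Trim30b overlapped Trim44, but both libraries of Trim3 and of Trim8 lay above both of Trim44. In the read-based table, a second deposited quantification made from the read files, the first 5 genes held the same places, and Trim14 and Trim34a exchanged theirs.

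The PHD and bromodomain members, which read chromatin and act as co-regulators of transcription, were present at moderate levels. Trim28 (KAP1), the corepressor recruited by KRAB zinc finger proteins, had 18.0 and 27.7 TPM (22.8 ± 6.81, SD, n = 2). Trim24 had 6.29 and 9.00 TPM, and Trim33, which binds SMAD proteins, had 5.88 and 7.23 TPM. Both libraries of Trim28 lay above those of Trim24 and Trim33, whose ranges overlapped. Trim28 overlaps Zbtb45, which had 110 and 101 counts. Trim66, known from testis, had 0.08 and 0.01 TPM, from 7 and 2 counts. The class held 4.74% ± 0.712 (SD, n = 2) of the members' summed TPM.

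Among the NHL-repeat members, which bind RNA or cytoskeletal cargo, Trim3 had 14.8 and 15.8 TPM. Trim2 had 1.02 and 1.35 TPM and Trim32, a ligase of muscle and neural differentiation, 0.83 and 1.51 TPM. Trim71, a repressor of messenger RNA in early embryos, was listed at 0. Trim3 therefore carried most of this class, which held 2.28% ± 0.0732 of the members' TPM.

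Most members of the COS box class were listed at 0. Of 8 COS box members, which bind microtubules or the sarcomere, 6 were listed at 0 in both libraries, against 7346 of 22028 protein-coding genes. Among the 6 were the muscle ligases Trim54, Trim55 and Trim63 and the neuronal members Trim9 and Trim67. Trim36 of the same class had 1.15 and 1.51 TPM, from 158 and 151 counts, and was the only one to reach 1 TPM in both libraries. Trim23, which carries an ARF GTPase domain, had 2.24 and 3.60 TPM. The members listed at 0 were Trim9, Trim10, Trim31, Trim38, Trim40, Trim42, Trim52, Trim54, Trim55, Trim58, Trim60, Trim61, Trim63, Trim67, Trim71 and Trim80. Of these, 6 (Trim9, Trim38, Trim52, Trim63, Trim67 and Trim71) held more than 3 estimated counts in both libraries of the read-based table. The same count over all protein-coding genes listed at 0 was not made.

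Between the libraries most differences were small, in the family as over all genes. Among 33 members averaging at least 100 counts, 0 differed beyond 2-fold in counts scaled with edgeR's TMM factors, against 3.44% of 9675 genes. By direction, 0 members were beyond 2-fold higher in replicate 2, against 1.61% of genes, and 0 lower, against 1.83%. Of 8650 protein-coding genes averaging at least 100 counts, 122 were beyond 2-fold higher and 94 lower. With 33 members, 0 cannot be told apart from such shares. Of the 33, 18 were lower in replicate 2 and 15 higher, where 49.2% of all genes were lower. The counting interval lay wholly below no change for 14 members and wholly above for 8, against 31.8% and 33.0% of all genes, and it included no change for 11. These intervals cover counting error only, so they do not test the replicates as biology.

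Most genes of the interferon-linked list, chosen with earlier results of these data known, were lower in replicate 2 in scaled counts. Its median log2 ratio, replicate 2 over replicate 1, was -0.15 over 15 members, of which 13 were lower in replicate 2 and 2 higher (Trim30a and Trim5). Over 11653 protein-coding genes averaging at least 10 counts, 5637 were lower. The median was 0.12 over 29 other members averaging at least 10 counts, of which 19 were higher, and 0.02 over all protein-coding genes. The 5 listed members outside the chromosome 7 cluster (Trim14, Trim21, Trim25, Trim26 and Trim56) had a median of -0.15, and all 5 were lower. Of the 14 listed members averaging at least 100 counts, 12 were lower, and 10 had a counting interval wholly below no change, against 31.8% of all genes. In ratios of TPM the list's median was 0.10 and the sign reversed, with 6 of these 14 members lower and 8 higher. Over all protein-coding genes the TPM ratio had a median of 0.26, so relative to it the list stood at -0.16, as it did in scaled counts.

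Among these 33 members Trim30b had the largest ratio in scaled counts, with 2112 and 1045 counts, which gave a log2 ratio of -0.83 (95% counting interval -0.94 to -0.72). It was -0.55 in the read-based table and -0.48 in TPM ratios, where Trim32 was farther from 0, at 0.81 and 0.79. Trim30c had -0.50 (-0.62 to -0.38), Trim14 -0.41 (-0.51 to -0.30), Trim34a -0.31 (-0.38 to -0.24) and Trim6 -0.31 (-0.55 to -0.07). In the other direction were Trim32 at 0.58 (0.19 to 0.98), Trim23 at 0.39 (0.15 to 0.62), Trim5 at 0.30 (0.14 to 0.46), Trim30a at 0.29 (0.26 to 0.32) and Trim2 at 0.29, whose interval (-0.0027 to 0.59) included no change. The paralogues Trim30a and Trim30b thus differed in opposite directions. Trim43c, chosen after its values were seen, was the only member beyond 2-fold among those averaging at least 10 counts. It had 24 and 70 counts and shares 58.6% of its 50-base stretches with other genes. Beside these ratios, library input differed between the replicates (1 µg and 500 ng), and its part in them was not tested.

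**Figure D3:**
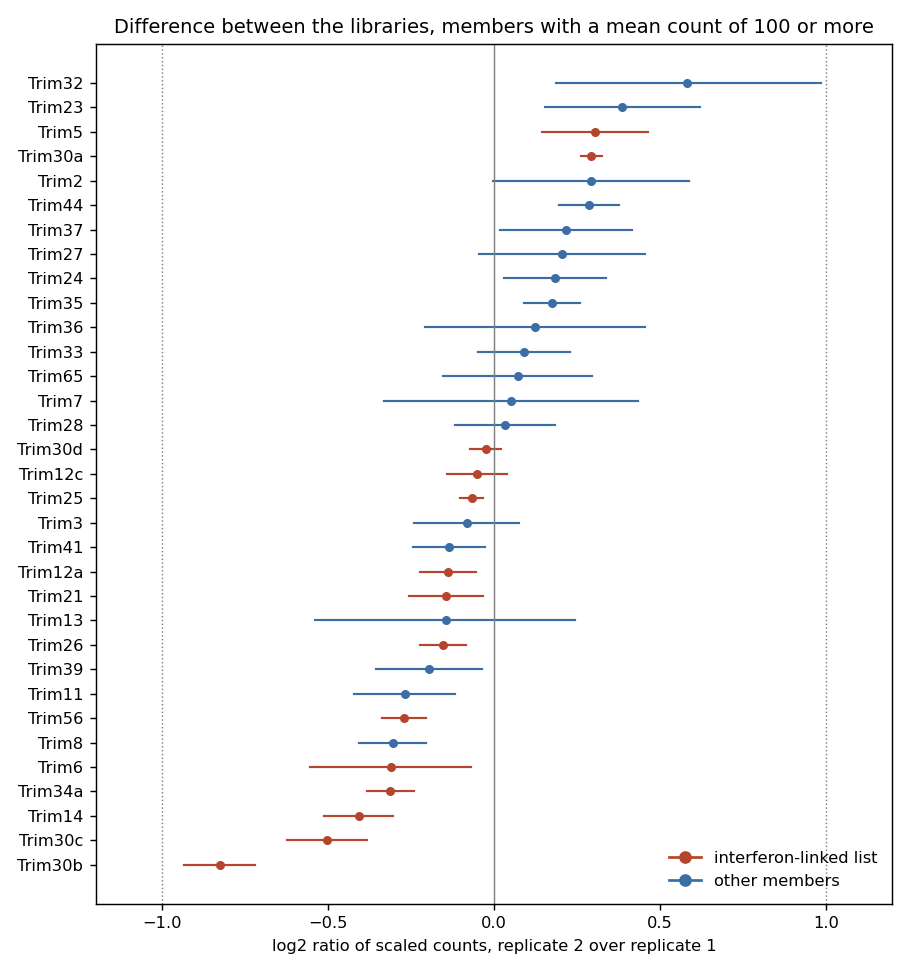
Log2 ratio of scaled counts, replicate 2 over replicate 1, for 33 members averaging at least 100 counts (points), with 95% counting intervals (lines), 2-fold marked by dotted lines and red for the interferon-linked list. All points lay within 2-fold, and 12 of the 14 listed members were below 0, where 49.2% of all genes were.

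Part of the family's signal came from transcripts that are not annotated as coding. Shares by transcript type were not computed over all protein-coding genes, so none is called particular to the family. Protein_coding transcripts held 81.9% ± 0.256 (SD, n = 2) of the members' TPM, retained-intron transcripts 10.6% ± 1.59 and processed transcripts 6.96% ± 1.76. In expected counts, which are not per length, the protein_coding share was 91.7% ± 0.582. In the read-based table it was 75.4% ± 2.09 of TPM. Of the 24 members with a mean of 5 TPM or more, 10 (among them Trim25, Trim30d and Trim34a) have only protein_coding transcripts in the annotation, which fixes their share at 100%.

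Trim28, Trim26 and Trim3 had less than 50% of their TPM in coding models in both libraries. For Trim28 retained-intron models held 59.4% and 58.3% of TPM, and the leading one, Trim28-203 of 565 bases, held 35.5% and 50.8%. In expected counts, however, the coding models of Trim28 held 67.2% and 57.9%. Whether coding models led for Trim28 therefore depended on the unit.

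Trim26 did not change in that way: its coding models held 26.4% and 24.0% of TPM and 21.6% and 25.9% of counts. Its leading transcript was the processed transcript Trim26-209 (2249 bases), with 41.7% and 52.6% of TPM. For Trim3, coding models held 37.6% and 40.1% of TPM and 78.2% and 80.7% of counts. For Trim12a, coding models held 52.3% and 35.3% of TPM and 46.6% and 38.4% of counts. Trim12a and Trim26 were thus under 50% coding by counts in both libraries. Retained-intron models of Trim12a held 46.7% and 47.3% of counts against 18.9% and 15.8% of TPM.

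**Figure D4:**
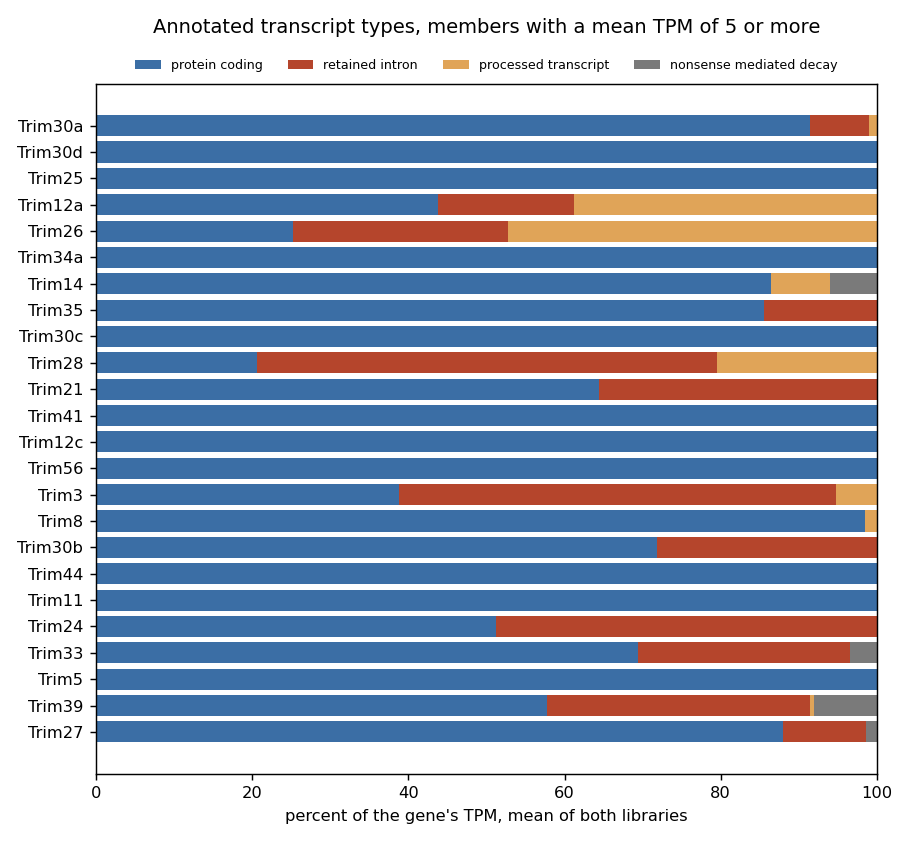
Percent of each gene's TPM by annotated transcript type, as the mean of both libraries (stacked bars), for 24 members with a mean of 5 TPM or more. Trim26, Trim28 and Trim3 were under 50% protein_coding in both libraries, and Trim12a in replicate 2 (35.3%) but not in replicate 1 (52.3%).

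For 33 members with a mean of 1 TPM or more and more than 1 transcript, both tables named the same leading transcript in each library for 23. Trim11, Trim12a, Trim2, Trim3, Trim30b, Trim39, Trim41, Trim65, Trim68 and Trim7 differed. For Trim41 the alignment-based table led with Trim41-201 (65.5% and 81.0% of TPM) and the read-based table with Trim41-202 (49.5% and 53.0%), a model of 429 bases. Transcript-level statements on these 10 members depend on the table. The same comparison was not made over all protein-coding genes.

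The motif search can be set beside the levels. The ISRE-like word occurred in 9 of 53 members with a promoter entry (Trim2, Trim5, Trim12a, Trim12c, Trim21, Trim26, Trim30a, Trim30d and Trim34a) and in 10 of their 67 promoters, against 3.99% of 27025 genes and 3.44% of 32851 promoters. These 9 had medians of 42.4 and 41.3 TPM, all reached 1 TPM in both libraries and 7 a mean of 10 TPM. The 44 without the word had medians of 0.41 and 0.445 TPM, and 16 reached 1 TPM in both libraries. Of these 44, 7 had a mean of 10 TPM or more, among them Trim25. The 15 members without a promoter entry were in neither set. Among those 15 were Trim14, Trim35, Trim3 and Trim8, each at a mean of 10 TPM or more. Over all protein-coding genes, 47.7% of those with the word and 44.8% of those without reached 1 TPM, and 26.8% and 18.4% a mean of 10 TPM. The members with the word include paralogues with identical 30-base windows (Trim30a and Trim30d, Trim12a and Trim5), so they are not independent. Whole promoters were not compared. A second word, TTCNNNGAA, the core of STAT-binding GAS sites and its own reverse complement, occurred in 6 of 53 members (Trim15, Trim30c, Trim31, Trim38, Trim45 and Trim46), against 9.55% of all genes, and no member held both words.

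**Figure D5:**
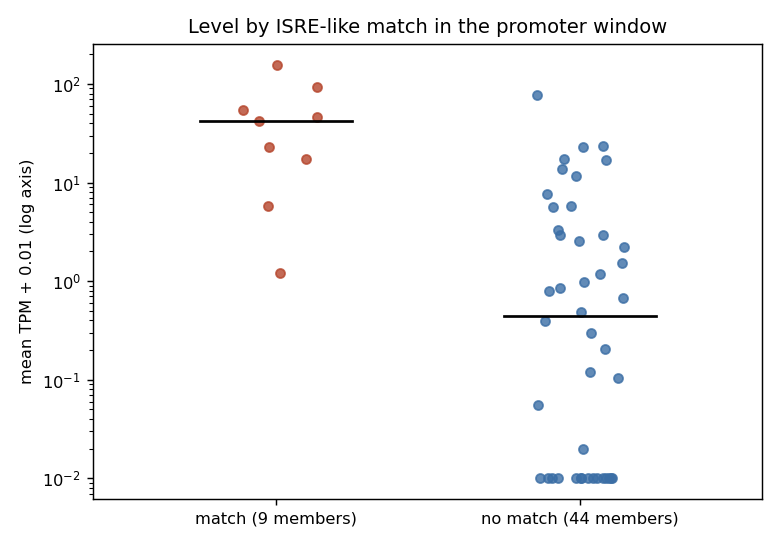
Mean TPM plus 0.01 (log axis) of members with and without the ISRE-like word in a RefSeq promoter, 1 point per member, spread sideways at random, with lines at the medians. All 9 members with the word lay above 1 TPM. The 44 without it reached down to 0, but 7 of them had a mean of 10 TPM or more. The 15 members without a promoter entry are not drawn.

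Genes that work with the family were measured in the same libraries, in lists chosen with earlier results of these data known. Over all protein-coding genes, 41.9% reached 1 TPM in both libraries. Of the 4 family genes with other symbols, Pml, which organises nuclear bodies, had 51.4 and 44.7 TPM, Mid1, a microtubule-bound ligase, 28.7 and 21.4 TPM and Mefv (pyrin) 16.5 and 22.9 TPM. Mid2 was at 0.01 TPM or less. Of 15 ubiquitin-conjugating enzymes and partners, 14 reached 1 TPM in both libraries, led by Ube2d3 at 66.9 and 101 TPM, and 13 were higher in replicate 2 in scaled counts, with a median log2 ratio of 0.22. Over 11653 protein-coding genes averaging at least 10 counts, 6016 were higher and the median was 0.02. Ube2l6, which conjugates ISG15, had 37.2 and 77.8 TPM and a log2 ratio of 0.83. All 12 genes of the TRIM28 silencing complex reached 1 TPM in both libraries. The 6 partners listed for Trim33 and Trim24 (Smad2, Smad3, Smad4, Ski, Skil and Rara) also reached it in both. So did all 8 genes of PML bodies, of which Daxx and Sumo2 are also in the silencing complex list. All 16 signalling genes acted on by antiviral TRIM proteins did so too, led by Irf7 at 398 and 261 TPM and Ikbke at 308 and 217 TPM, with 8 higher and 8 lower in replicate 2 in scaled counts. Ddx58, which encodes RIG-I, the target of Trim25, had 128 and 111 TPM.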

How the data were processed

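Nucleoplasmic RNA was measured in 2 libraries of 1 group, so no contrast exists and no p-value is given. Per the file headers, tables used assembly mm10 and GENCODE M21 (aligner, quantifier, versions and strand setting: not given in the sources used here). Each deposited gene and transcript table holds expected counts (estimated counts that need not be whole) and TPM, which the authors normalised for effective length to a fixed sum. The deposited credibility bounds of TPM, handled as a signal, describe estimation error within a library and were not used for results. A further deposited transcript table, derived from reads, gives estimated counts (33095133 and 33056084 in genes) and TPM.

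Expected counts were rounded, and only annotated genes entered library sizes. Counts were scaled with TMM factors (edgeR 4.0.16, R 4.3.3) of 0.994 and 1.01 from genes with at least 10 counts in each library. Log2 ratios used a prior count of 0.5, a mean count of 100 or more for genes and 10 or more for lists, and exact Clopper-Pearson 95% intervals. Intervals and floors cover counting error only. Calculations used Python 3.11.15, pandas 2.3.3 and scipy 1.17.1 and were tested on simulated data. Alternatives were size factors of DESeq2 1.42.0, library size alone, other filters and prior counts, TPM ratios and the read-based table.

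Named genes were the 20 members of highest mean TPM, the 5 highest and 5 lowest ratios, every member of the chromosome 7, PHD and NHL classes, members at 5 TPM or more whose leading transcript differed or was not coding, and those at 0. Members and lists were chosen with earlier results of these data known. The total of one list of cell type markers is not reported here. Of the 68 members, 39 overlap another gene and 15 of these have a mean count of 100 or more beside counts of the other gene (Trim12a, Trim13, Trim14, Trim2, Trim27, Trim28, Trim3, Trim30d, Trim33, Trim35, Trim41, Trim44, Trim6, Trim65 and Trim7); their values can include its reads. Shared 50-base stretches were counted over annotated transcripts. Promoter sequences are those of RefSeq on GRCm38.p6.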

Additional observations from a re-analysis of the deposited data

Results flagged for a closer look

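Members listed at 0 in both libraries of the alignment-based gene table were looked up in the read-based transcript table, which the levels above do not use. Of the 16 members, 8 were at 0 there too, and 6 held more than 3 estimated counts in both libraries. The same share over all protein-coding genes listed at 0 was not computed. Of protein-coding genes, 14944 averaged at least 10 counts in the read-based table and 11653 in the alignment-based one. Trim52 had 133.1 and 154.9 estimated counts, nearly all on a processed transcript, and 3.40 and 6.41 TPM in that table. Trim67, which overlaps Gm16163, had 101.1 and 131.0, and Trim63, a muscle ligase, had 67.8 and 105.4. Trim71 had 33.1 and 55.17, Trim9 had 20.16 and 34.73, and Trim38 had 8.001 and 7.0. These 6 were chosen for more than 3 estimated counts in both libraries, so their presence in both follows from that choice. Trim10 and Trim58 also held estimated counts in the read-based table, but not more than 3 in both libraries. Which table is nearer to the RNA was not tested.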

How the results depend on the processing

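With 2 libraries of 1 group the spread between replicates rests on 1 difference, and a count of 0 in the gene table allows 0.126 and 0.145 CPM for counting error alone, which does not bound the members with counts in the read-based table. The number of members at 1 TPM or more in both libraries was 33, between 30 and 42 under 4 other thresholds or tables, and 33 to 37 for single libraries. The median TPM of members rose from 1.16 to 6.04 when only those with a mean count of 10 or more entered, since fewer genes are counted, and was 0.89 to 1.42 for single libraries. The cluster share fell from 52.6% to 48.4% in expected counts, and was 51.9% to 53.4% for single libraries. Members beyond 2-fold numbered 1 among those averaging at least 10 counts, 7 with no filter and 1 in the read-based table, against 0 as reported. The median log2 ratio of members, -0.04, was 0.068 in the read-based table and 0.23 in TPM ratios, and that of the interferon-linked list, -0.15, was 0.10 in TPM ratios. The shift of all genes in TPM ratios, 0.23, accompanies these signs, and the cause in the read-based table was not tested. Leading transcripts were the same for 13 of 17 members at 10 TPM or more in place of 23 of 33, and for 25 to 26 members in single libraries. The protein_coding share was 75.4% in the read-based table and, in an alternative chosen after seeing the data, 91.7% in expected counts, against 81.8% to 82.1% for single libraries. Of 33 members, 10 changed sign in TPM ratios, 1 in the read-based table and 0 with DESeq2 size factors or library size. Of 30 named genes, 27 moved beyond 1 SD in the read-based table's TPM. No paired analysis was possible because there is 1 group and no test.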
